A study of Homo sapiens with 12 samples.

Results

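The subunits of RNA polymerases I, II and III were followed at the transcript level in C4.2B cells, a castration-resistant prostate cancer line derived from LNCaP. Members were the protein-coding genes of the count table whose symbol is POLR1, POLR2 or POLR3 followed by a subunit letter from A to L, with an optional further letter or digit. The rule took 30 of the 58735 genes in the table, under 29 symbols, since POLR2J3 is listed under 2 identifiers. By the enzyme they belong to, 3 were subunits of polymerase I only, 10 of polymerase II only and 10 of polymerase III only, and 7 were shared, 5 of them by all 3 enzymes. The experiment asked what AKT and EZH2 inhibition do, singly and together, before the cells die. PolyA RNA was sequenced in 12 libraries, 3 (replicates A, B and C) in each of 4 groups: DMSO vehicle, the AKT inhibitor ipatasertib at 0.25 uM, the EZH2 inhibitor tazemetostat at 1 uM, and the combination of both at these doses. Tazemetostat was started 6 days ahead of the co-treatment, which lasted 24 hours in medium with 10% charcoal-stripped serum for all groups. The replicates were parallel plates of 1 cell line, so p-values measure the spread between plates.

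RNA polymerase I transcribes the large ribosomal RNA precursor in the nucleolus, polymerase II transcribes messenger RNA, and polymerase III transcribes transfer RNA and other small RNAs. Each enzyme is built around a pair of very large catalytic subunits, and a set of small subunits is common to all of them. Growth signalling through AKT and mTOR is known to raise the output of polymerases I and III, and MAF1 is a known repressor of polymerase III.

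Library totals ran from 14133755 to 22276417 counts, and those of the ipatasertib libraries, up to 14815838, lay below those of the combination, from 15273647. Levels are given as CPM, the count of a gene relative to its library's total after scaling for library composition, and levels of different genes are compared only as CPM per kilobase of the table's gene length. Genes were called at an adjusted p under 0.05 in edgeR's quasi-likelihood test over the 16646 genes that passed the filter on low counts, and all 30 members passed it. POLR2J2 and POLR2J3 (ENSG00000285437) would not have passed it on the DMSO libraries alone. The luminal prostate markers KLK2, KLK3, TMPRSS2, FOLH1 and HOXB13 were present in all groups, with group means from 54.1 CPM (TMPRSS2 in DMSO) to 3941 CPM (KLK3 in the combination). The leukocyte marker PTPRC and the endothelial marker PECAM1 had group means of at most 0.579 CPM, and the fibroblast marker COL1A1 rose from 5.67 CPM in DMSO to 16.8 CPM with tazemetostat and 11.9 CPM with the combination; the part of such changes in the results was not tested. A relative level in bulk RNA cannot tell fewer transcripts per cell from a change in the total RNA of the cell.

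Most subunit transcripts were lower after the combination. Of the 30 members, 23 fell against DMSO and 5 rose, while 35.2% of all tested genes fell and 38.0% rose. The median log2 fold change was -0.91 over the members and 0.06 over all tested genes. Tazemetostat alone lowered 22 members and raised 3 (31.5% and 32.6% of all genes), with a median of -0.54 beside 0.03 over all genes. Ipatasertib alone lowered 16 members and raised 2 (21.9% and 20.6% of all genes), with a median of -0.27 beside 0.01. These 3 comparisons share the DMSO libraries and are not independent of each other. POLR2J3 (ENSG00000285437), among the members that rose with tazemetostat and in the combination, would not have passed the low-count filter on the DMSO libraries alone. The filter thus favoured its calls as higher.

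**Figure D1:**
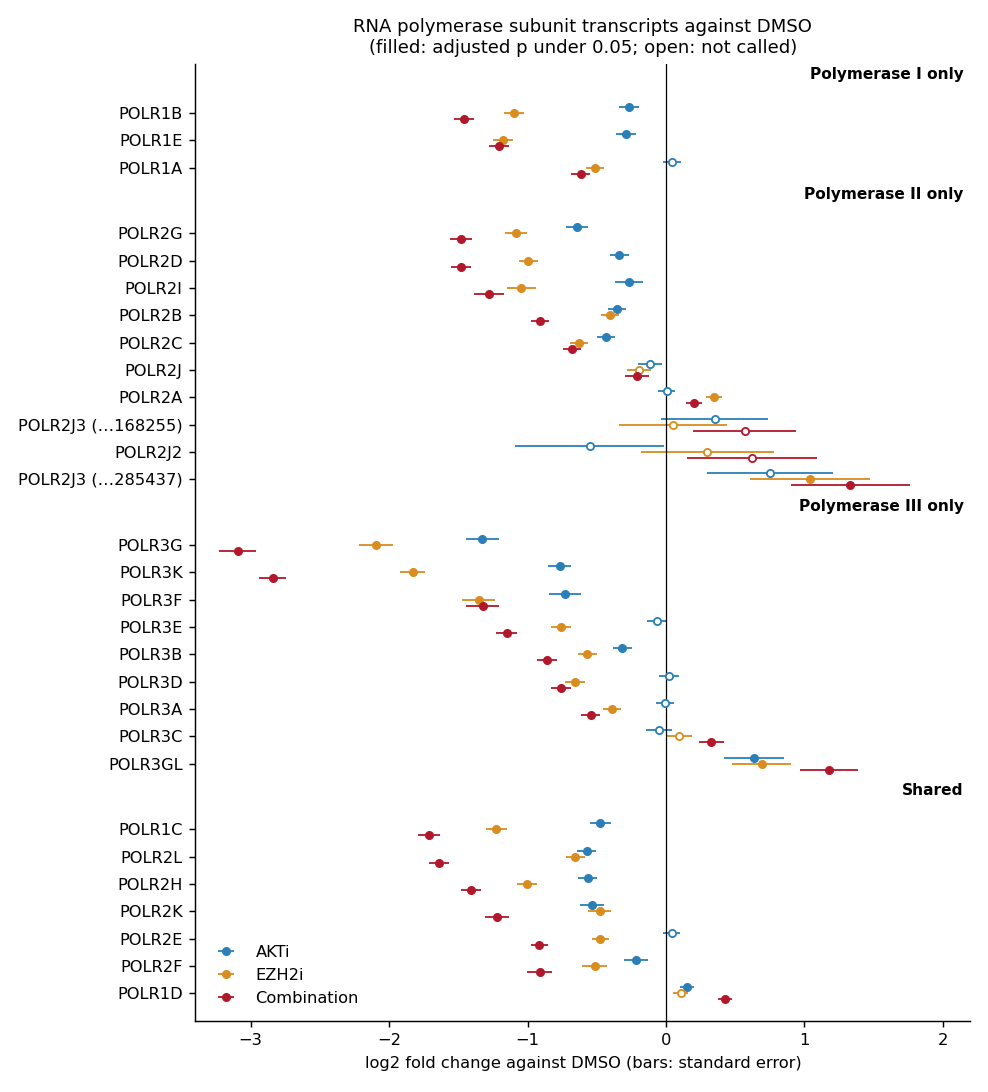
Log2 fold change of 29 of the 30 subunit entries against DMSO (x axis) for ipatasertib (AKTi, blue), tazemetostat (EZH2i, orange) and the combination (red), with standard errors as bars and filled points for genes called at an adjusted p under 0.05. POLR3G at -3.09 and POLR3K at -2.84 lie farthest to the left in the combination, and POLR3GL at 1.18 and 1 of the 2 POLR2J3 entries at 1.33 lie farthest to the right. That POLR2J3 entry would not have passed the low-count filter on the DMSO libraries alone.

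The class medians ranged from -1.22 to -0.44 in the combination. In the combination, all 3 subunits of polymerase I only fell, with a median log2 fold change of -1.21. The classes leave out CD3EAP, TWISTNB and ZNRD1 of polymerase I and CRCP of polymerase III. The symbol rule missed these subunits, and they are described apart below. Of the 10 subunits of polymerase II only, 6 fell and 2 rose, POLR2A and POLR2J3 (ENSG00000285437), with a median of -0.44. The low-count POLR2J2 and POLR2J3 entries all had positive estimates in the combination and with tazemetostat, which raises the medians of this class. Its median without these entries was not computed. Of the 10 subunits of polymerase III only, 8 fell and 2 rose, with a median of -0.86, and of the 7 shared subunits 6 fell and 1 rose, with a median of -1.22. All 5 subunits common to the 3 enzymes fell in the combination and with tazemetostat, and 4 of the 5 fell with ipatasertib. Beside these class counts, 35.2% of all tested genes fell and 38.0% rose in the combination. With tazemetostat 31.5% fell and with ipatasertib 21.9%. With tazemetostat the class medians were -1.10 for polymerase I, -0.30 for II, -0.61 for III and -0.52 for the shared subunits; with ipatasertib they were -0.27, -0.30, -0.06 and -0.47 in the same order.

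Class levels were also taken library by library, with each gene's log2 CPM set against its DMSO mean and the median taken over each class. The polymerase III class stood at -0.085 ± 0.030 with ipatasertib, -0.61 ± 0.043 with tazemetostat and -0.86 ± 0.052 in the combination (SD, n = 3), and these groups did not overlap. The polymerase I class stood at -1.10 ± 0.10 with tazemetostat and -1.20 ± 0.065 in the combination, and the libraries of these groups overlapped. The polymerase II class stood at -0.23 ± 0.10 with ipatasertib, -0.41 ± 0.12 with tazemetostat and -0.44 ± 0.055 in the combination. It includes the low-count POLR2J2 and POLR2J3 entries. In every combination library these entries stood above their own DMSO mean, which raises the class level there. The level of this class without them was not computed, so its overlaps between groups rest in part on low counts. Tazemetostat libraries of this class overlapped both other treatments, and all treated libraries lay below DMSO. The shared class stood at -0.47 ± 0.047 with ipatasertib and -0.53 ± 0.18 with tazemetostat, which overlapped, and at -1.22 ± 0.15 in the combination, below every single-agent library. The differences between classes were not tested.

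**Figure D2:**
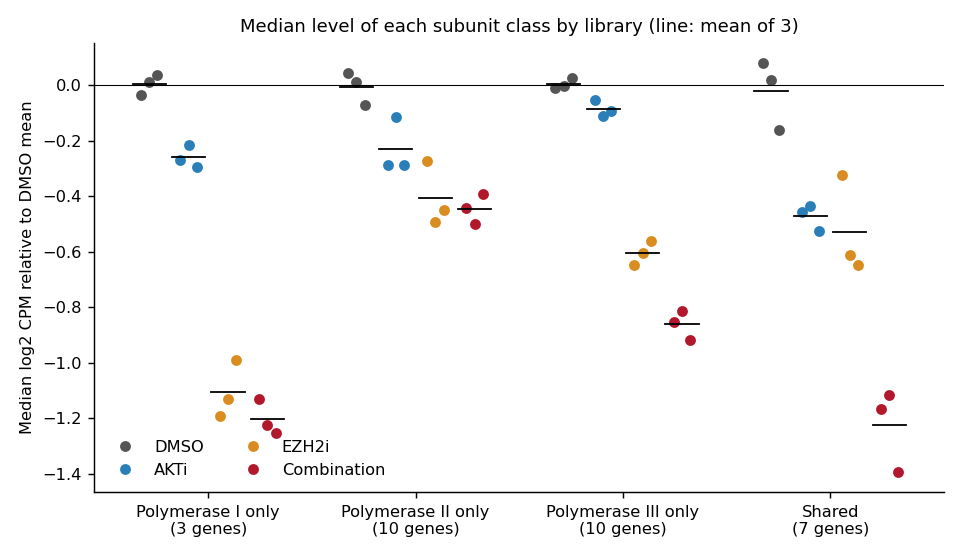
Median log2 CPM of each subunit class relative to its DMSO mean (y axis), 1 point per library and a line at the mean of 3. The shared subunits in the combination lie between -1.39 and -1.12, apart from both single agents, whereas the polymerase I subunits lie between -1.25 and -0.99 with tazemetostat or the combination.

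The widest changes were in polymerase III. POLR3G and POLR3GL are alternative paralogous subunits of the subcomplex that takes part in initiation, POLR3G being known for high expression in stem cells and tumours and POLR3GL for broad expression in differentiated tissues. POLR3G was at 33.5, 35.6 and 30.1 CPM in the DMSO libraries, 14.3, 12.3 and 12.8 CPM with ipatasertib, 6.90, 8.71 and 7.44 CPM with tazemetostat, and 4.26, 4.09 and 3.14 CPM in the combination. The gene lies at chr5:90471748-90514553 on the plus strand in hg38, and POLR3GL at chr1:145964702-145978848 on the plus strand. For POLR3G no 2 groups overlapped, and the level stepped down in that order of treatments. Against DMSO, the log2 fold change of POLR3G was -1.33 with ipatasertib, -2.10 with tazemetostat and -3.09 ± 0.13 (SE) in the combination, an 8.54-fold lower level (adjusted p = 1.31e-21).

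POLR3GL moved the other way. Its libraries read 3.10, 1.92 and 3.88 CPM in DMSO, 4.196, 5.53 and 4.45 CPM with ipatasertib, 5.02, 5.20 and 4.55 CPM with tazemetostat, and 6.49, 6.63 and 7.55 CPM in the combination. All DMSO libraries lay below every treated library, and the combination lay above both single agents, which overlapped. The log2 fold change against DMSO was 1.18 ± 0.21 in the combination (2.26-fold, adjusted p = 4.23e-06), 0.64 with ipatasertib (adjusted p = 0.017) and 0.69 with tazemetostat (adjusted p = 0.00481). Both single-agent calls were lost without DMSO replicate B, the lowest library (0.40 with adjusted p = 0.16 and 0.42 with adjusted p = 0.0862), and the ipatasertib call also without ipatasertib replicate B (0.48, adjusted p = 0.126). Counts of POLR3GL ran from 26 to 128 per library, and 21.1% of its exon bases are also annotated to another gene on the same strand.

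The ratio of POLR3G to POLR3GL per kilobase turned over across the groups. It was 4.84, 8.30 and 3.46 in DMSO, 1.53, 0.997 and 1.29 with ipatasertib, 0.615, 0.749 and 0.732 with tazemetostat, and 0.294, 0.276 and 0.186 in the combination. Per kilobase of the table's gene length, POLR3G was thus the more abundant paralogue in all DMSO libraries and the less abundant in all tazemetostat and combination libraries. With tazemetostat that order depends on the gene lengths. The counts themselves were 103, 149 and 162 for POLR3G and 75, 89 and 99 for POLR3GL in these libraries. In the combination the counts of POLR3G were below those of POLR3GL in every library. The mean log2 ratio differed by -4.39 between the combination and DMSO, with an exact permutation p = 0.1 (two-sided), the smallest that 3 libraries against 3 can give; all 6 pairs of groups separated fully and gave p = 0.1 (adjusted p = 0.1 over the 6).

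**Figure D3:**
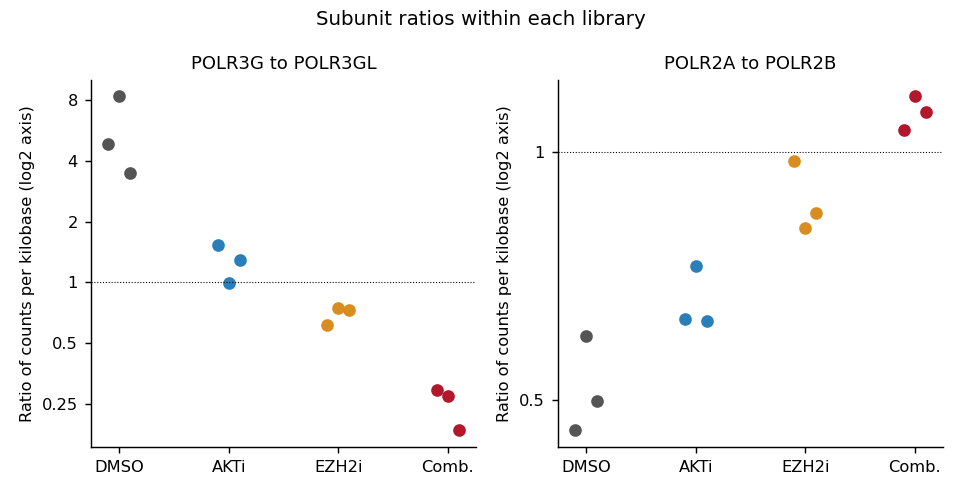
Ratio of counts per kilobase of POLR3G to POLR3GL (left) and POLR2A to POLR2B (right) in each library, on log2 axes. The POLR3G to POLR3GL ratio goes from between 3.46 and 8.30 in DMSO to between 0.186 and 0.294 in the combination, and the POLR2A to POLR2B ratio from between 0.460 and 0.598 to between 1.06 and 1.17.

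POLR3K, the small zinc-ribbon subunit that takes part in RNA cleavage and termination, was the other large change; its library values were singled out after they were seen. It read 86.4, 78.0 and 80.6 CPM in DMSO, 45.1, 47.4 and 51.5 CPM with ipatasertib, 26.5, 20.4 and 22.2 CPM with tazemetostat, and 10.8, 13.1 and 10.2 CPM in the combination. The gene lies at chr16:46407-53628 on the minus strand. The 4 groups did not overlap. The log2 fold change of POLR3K was -0.77 with ipatasertib, -1.83 with tazemetostat and -2.84 ± 0.10 (SE) in the combination, where it was 7.17-fold lower (adjusted p = 5.73e-25).

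The catalytic pair of polymerase III changed less. POLR3A, the largest subunit, was at 69.9, 74.7 and 80.4 CPM in DMSO, 74.5, 74.1 and 75.4 CPM with ipatasertib, 53.8, 58.2 and 59.7 CPM with tazemetostat, and 52.2, 52.5 and 49.8 CPM in the combination. The ipatasertib libraries lay inside the DMSO range and the other treated libraries below it. The log2 fold change was -0.54 in the combination, -0.39 with tazemetostat and -0.01 (not called) with ipatasertib. POLR3B, the second-largest subunit, was at 61.1, 57.6 and 60.6 CPM in DMSO, 47.8, 48.8 and 47.7 CPM with ipatasertib, 38.8, 41.9 and 40.3 CPM with tazemetostat, and 33.7, 32.8 and 32.4 CPM in the combination. Here all 4 groups were apart, and all 3 treatments lowered the level (-0.31, -0.57 and -0.86).

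POLR3D and POLR3E, which form the subcomplex related to TFIIF, were not called with ipatasertib (0.02 and -0.06) and fell in the combination, with log2 fold changes of -0.76 and -1.15. POLR3F, which belongs with POLR3C to the initiation subcomplex, fell with either agent (-0.73 with ipatasertib and -1.35 with tazemetostat) and by 1.32 in the combination, whose contrast with tazemetostat was not called (0.03). POLR3C read 25.0, 29.1 and 25.4 CPM in DMSO and 31.1, 33.8 and 34.6 CPM in the combination, where it rose by 0.33 (adjusted p = 0.00153), the opposite direction to its partner; its library values were also chosen after they were seen.

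**Figure D4:**
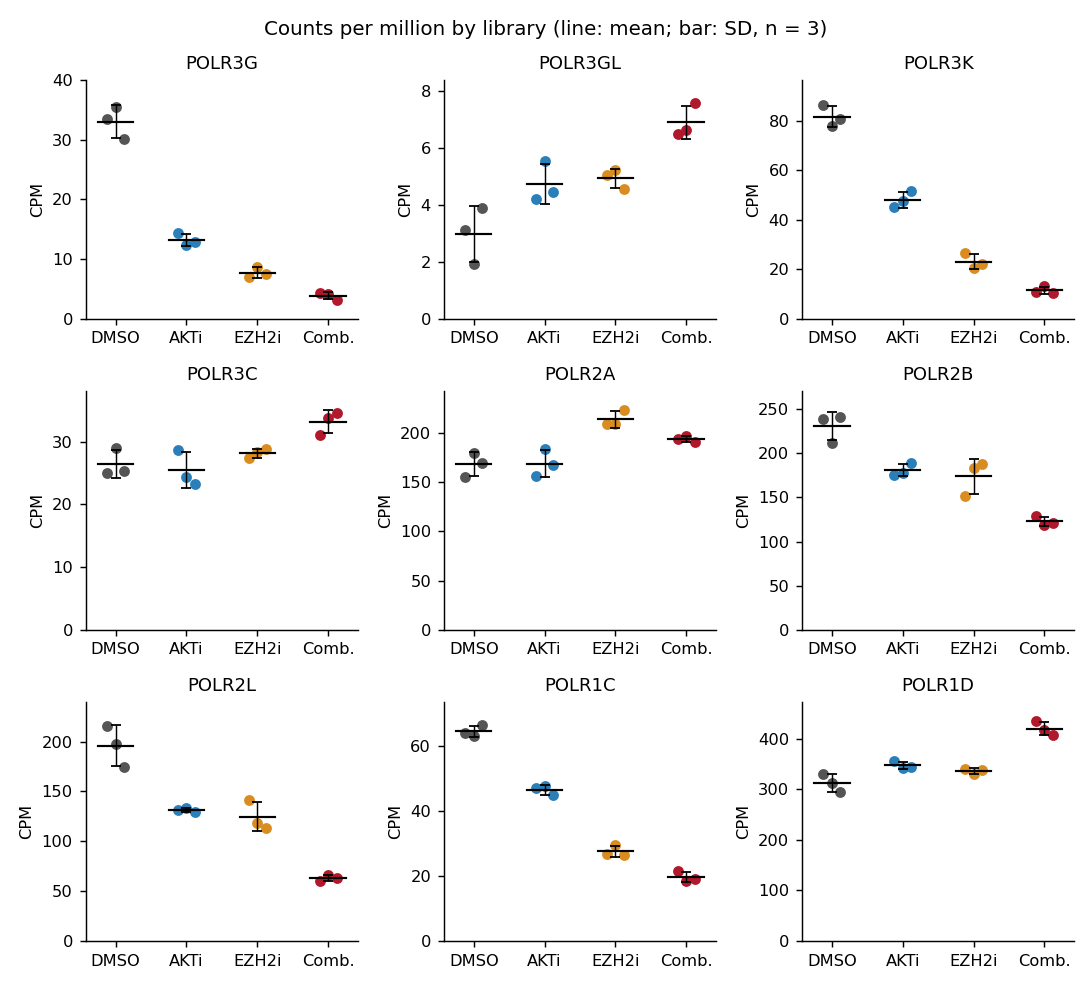
CPM by library (y axis, linear from 0) of 9 subunits in the 4 groups, with a line at the mean and a bar for the SD (n = 3). POLR3G, POLR3K, POLR2L and POLR1C step down to their lowest level in the combination, whereas POLR3GL, POLR3C and POLR1D are highest there and POLR2A is highest with tazemetostat.

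The sequences upstream of some of these genes are shown because polymerase III subunits moved both ways. The windows are from RefSeq (GRCh38.p14), 300 bases from 250 before to 50 after each annotated start, and 20 of the 29 member symbols had 1 or more, giving 26 windows. Symbols without one included POLR1E, POLR2G, POLR2I, POLR2J, POLR2J3, POLR2K, POLR3D and POLR3G. Each window was searched on both strands for CACGTG, the E-box read by MYC and related factors, and for CCGGAAG, a core read by ETS-family factors; no matches printed here overlap each other. The first set gives the 250 bases before the start of POLR3K, which fell in the combination, and of POLR3GL, which rose; neither holds a match.
POLR3K, chr16:53609-53858, minus strand: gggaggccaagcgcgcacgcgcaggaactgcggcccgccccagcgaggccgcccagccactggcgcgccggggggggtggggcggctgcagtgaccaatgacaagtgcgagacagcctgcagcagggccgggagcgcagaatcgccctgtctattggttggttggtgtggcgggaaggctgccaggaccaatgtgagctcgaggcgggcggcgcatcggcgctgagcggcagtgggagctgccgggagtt
POLR3GL, chr1:145964440-145964689, plus strand: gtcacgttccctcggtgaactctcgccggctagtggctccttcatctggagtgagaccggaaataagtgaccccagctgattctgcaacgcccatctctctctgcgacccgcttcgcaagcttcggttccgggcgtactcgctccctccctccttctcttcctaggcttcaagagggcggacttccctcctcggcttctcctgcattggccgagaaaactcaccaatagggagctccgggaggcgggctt
CACGTG was in 3 of the 26 member windows (11.5%) and in 7.26% of all 35116 windows. It occurred in POLR3C, which rose in the combination, and in POLR3A and POLR3E, which fell. The 100-base stretches around it are given here with the matches in capitals, CCGGAAG also being in capitals where it falls within the stretch.
POLR3C, chr1:145823970-145824069, plus strand: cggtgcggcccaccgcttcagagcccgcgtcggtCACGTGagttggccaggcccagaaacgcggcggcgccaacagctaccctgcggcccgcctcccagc
POLR3A, chr10:78029516-78029615, minus strand: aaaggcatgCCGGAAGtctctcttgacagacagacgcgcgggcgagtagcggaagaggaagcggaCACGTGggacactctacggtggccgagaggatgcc
POLR3E, chr16:22297324-22297423, plus strand: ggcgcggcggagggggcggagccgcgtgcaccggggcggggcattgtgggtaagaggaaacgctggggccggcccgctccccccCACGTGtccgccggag
CCGGAAG was in 10 of the 26 windows (38.5%) and in 10.3% of all windows. The 2 POLR2F windows overlap and hold the same match, so it is counted in both. By symbol, CCGGAAG was in 8 of 20 members and in 3321 of 27305 symbols. The 8 symbols that held it were POLR1B, POLR1C, POLR2C, POLR2D, POLR2F, POLR2J2, POLR3A and POLR3C, of which POLR3C rose, POLR2J2 was not called and the others fell in the combination. All windows include those of genes that were not tested here, whereas every member was tested. The shares over the windows of tested genes alone were not taken, so the higher share among members cannot be called particular to them. A match is a stretch of letters and was not tested for binding.

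The 3 subunits of polymerase I only fell with tazemetostat and in the combination (31.5% and 35.2% of all genes), and 2 of them fell with ipatasertib (21.9% of all genes). POLR1A, the largest catalytic subunit, was at 88.6, 105 and 100.5 CPM in DMSO, 95.4, 104 and 104 CPM with ipatasertib, 68.7, 71.8 and 65.9 CPM with tazemetostat, and 60.7, 65.2 and 66.1 CPM in the combination. Ipatasertib libraries lay within the DMSO range (log2 fold change 0.04, not called), and tazemetostat and combination libraries overlapped each other below it (-0.51 and -0.62). POLR1B, its catalytic partner, was at 78.9, 81.4 and 82.1 CPM in DMSO, 67.0, 69.4 and 65.1 CPM with ipatasertib, 35.4, 36.9 and 40.7 CPM with tazemetostat, and 32.4, 27.0 and 28.6 CPM in the combination. The 4 groups were apart, and the combination was 2.75-fold lower than DMSO (-1.46 ± 0.074, adjusted p = 1.5e-19). POLR1E, an accessory subunit, fell by 1.18 with tazemetostat and by 1.21 in the combination, and the direct contrast of these groups was not called (-0.03).

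POLR1C and POLR1D form a heterodimer that polymerases I and III share, and their transcripts went opposite ways. POLR1C was at 64.0, 63.1 and 66.4 CPM in DMSO, 47.0, 47.7 and 44.8 CPM with ipatasertib, 26.9, 29.6 and 26.3 CPM with tazemetostat, and 21.4, 18.4 and 19.1 CPM in the combination. POLR1D was at 330.1, 313 and 295 CPM in DMSO, 356, 342 and 345 CPM with ipatasertib, 341, 330.1 and 338 CPM with tazemetostat, and 435, 417 and 408 CPM in the combination. The combination was the lowest group for POLR1C and the highest for POLR1D, without overlap with any other group. POLR1C was 3.28-fold lower in the combination (-1.71 ± 0.080, adjusted p = 1.02e-20) and POLR1D 1.34-fold higher (0.43 ± 0.052, adjusted p = 3.36e-09). With ipatasertib POLR1D was called higher (0.15, adjusted p = 0.0166), a call that was lost on leaving out DMSO replicate B or C or any ipatasertib library (adjusted p up to 0.10). It held in 13 of 19 alternative fits. Of POLR1C exon bases, 18.3% are overlapped on the opposite strand, among others by XPO5 (-0.64 in the combination) and YIPF3 (0.65). Whether the counting used strand is not given in the sources used here, so the part of such reads in any overlapped member was not tested.

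The 5 subunits common to the 3 enzymes are small proteins of the assembly platform and periphery. POLR2L was the most abundant member per kilobase, at a mean of 172 CPM per kilobase in DMSO, 115 with ipatasertib, 109 with tazemetostat and 55.1 in the combination. Its libraries ran from 175 to 215 CPM in DMSO, 129.7 to 133 CPM with ipatasertib, 114 to 141 CPM with tazemetostat and 60.2 to 65.7 CPM in the combination, so that the single agents overlapped each other and the combination stood below both. The log2 fold change in the combination was -1.64 for POLR2L, -1.41 for POLR2H, -1.22 for POLR2K, -0.91 for POLR2E and -0.91 for POLR2F. POLR2E was not called with ipatasertib (0.04), and the ipatasertib call of POLR2F was marginal (-0.21, adjusted p = 0.0468), with overlapping groups, and was lost without DMSO replicate A or B, ipatasertib replicate B or C, or combination replicate A or B. That POLR2F call held in 10 of 19 alternative fits. CD151 overlaps 22.8% of POLR2L exon bases on the opposite strand, and its own change in the combination was 0.05 (not called).

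In polymerase II the catalytic pair separated. POLR2A, whose product carries the long C-terminal repeat domain, was at 156, 179.8 and 170.0 CPM in DMSO, 156, 184 and 167 CPM with ipatasertib, 209, 209.6 and 224 CPM with tazemetostat, and 194, 197 and 191 CPM in the combination. DMSO and ipatasertib overlapped, and the tazemetostat and combination libraries lay above them. POLR2A rose by 0.35 with tazemetostat (adjusted p = 4.15e-06) and by 0.20 in the combination (adjusted p = 0.00272), but the latter call was lost without DMSO replicate A (0.14, adjusted p = 0.0522).

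POLR2B, the second-largest subunit, was at 239, 212 and 241 CPM in DMSO, 176, 178 and 189 CPM with ipatasertib, 151, 183 and 187 CPM with tazemetostat, and 129, 119 and 121 CPM in the combination. The single agents overlapped below DMSO, and the combination lay below them. POLR2B fell by 0.35, 0.41 and 0.91 in that order (combination 1.88-fold, adjusted p = 4.78e-15). The ratio of POLR2A to POLR2B per kilobase, looked at after the values were seen and not tested, went from between 0.460 and 0.598 in DMSO to between 0.625 and 0.728 with ipatasertib, between 0.808 and 0.976 with tazemetostat and between 1.06 and 1.17 in the combination.

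Among the smaller polymerase II subunits, POLR2G, which forms the stalk with POLR2D, had the lowest log2 fold change. It was at 95.0, 101 and 79.2 CPM in DMSO, 59.1, 62.1 and 54.0 CPM with ipatasertib, 46.7, 39.5 and 43.2 CPM with tazemetostat, and 34.6, 32.5 and 31.0 CPM in the combination, with no overlap between groups. Both stalk subunits changed by -1.48 in the combination. POLR2C, of the assembly platform, fell by 0.68, and POLR2I, a small zinc-binding subunit, by 1.28. POLR2I is 77.2% overlapped on the opposite strand, by TBCB and OVOL3 among others, and TBCB changed by -0.34 in the combination and 0.25 with ipatasertib, where POLR2I was called lower (-0.27, adjusted p = 0.0342) but not without DMSO replicate A or B or ipatasertib replicate A or C. This POLR2I call held in 13 of 19 alternative fits.

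The POLR2J paralogues were the least certain members. POLR2J, a partner of POLR2C, was at 60.1, 60.0 and 52.8 CPM in DMSO, 50.2, 56.7 and 52.2 CPM with ipatasertib, 60.0, 44.5 and 46.8 CPM with tazemetostat, and 47.6, 46.5 and 55.3 CPM in the combination. All groups overlapped, and the combination call (-0.21, adjusted p = 0.0317) was lost, among others, without DMSO replicate A, combination replicate A or combination replicate B, and under scaling by library size only (-0.01). It held in 12 of 19 alternative fits.

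POLR2J2 held between 0.209 and 1.51 CPM in the 12 libraries, at 0.875, 0.590 and 0.623 CPM in DMSO, 0.362, 0.841 and 0.209 CPM with ipatasertib, 1.00, 0.643 and 0.919 CPM with tazemetostat, and 0.862, 0.865 and 1.51 CPM in the combination. It was called only in the combination against ipatasertib (1.18, adjusted p = 0.042), and that call held in 7 of 18 alternative fits. POLR2J3 (ENSG00000168255), at 1.35, 1.70 and 1.05 CPM in DMSO, 1.52, 1.68 and 1.95 CPM with ipatasertib, 2.68, 0.760 and 0.873 CPM with tazemetostat, and 1.88, 2.25 and 1.87 CPM in the combination, was called in no comparison. POLR2J3 (ENSG00000285437), at 0.606, 0.664 and 0.719 CPM in DMSO, 0.868, 1.19 and 1.32 CPM with ipatasertib, 1.67, 0.701 and 1.75 CPM with tazemetostat, and 1.52, 1.04 and 2.54 CPM in the combination, was called higher in the combination (1.33, adjusted p = 0.00586; without combination replicate C 0.94, adjusted p = 0.0764) and with tazemetostat (1.04, adjusted p = 0.0364, with overlapping groups, lost without any 1 DMSO library or tazemetostat replicate A or C). Because POLR2J3 (ENSG00000285437) would not have passed the low-count filter on the DMSO libraries alone, the filter favoured its calls as higher. Of the 75-base stretches in their annotated transcripts, 96.4% for POLR2J2, 78.7% and 28.1% for the POLR2J3 entries and 28.7% for POLR2J also occur in other genes, so that reads of this family could be split between entries or left uncounted.

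Against the single agents, the combination lowered 22 members and raised 5 relative to ipatasertib (32.1% of all genes in each direction), with a median of -0.69. Relative to tazemetostat it lowered 16 and raised 3 (25.7% and 21.1% of all genes), with a median of -0.26. By class, the second comparison lowered 1 of the 3 polymerase I subunits, 4 of the 10 polymerase II subunits, 5 of the 10 polymerase III subunits and 6 of the 7 shared subunits. The call of POLR2A as lower (-0.14, adjusted p = 0.046) held in 8 of 19 alternative fits. Tazemetostat against ipatasertib lowered 19 members and raised 1, POLR2A (25.1% and 25.4% of all genes). The counts of members that rose in the combination against the single agents moved with single libraries. Against ipatasertib, 5 became 2 without ipatasertib replicate A and 3 without ipatasertib replicate C or combination replicate C, and against tazemetostat 3 became 1 without ipatasertib replicate A, tazemetostat replicate B, or combination replicate B or C.

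The combination could be compared with the sum of the single-agent log2 changes. This interaction was called for 6 members, 4 lower and 2 higher (17.5% and 10.7% of all genes), and 24 were not called. POLR2E (-0.48), POLR2L (-0.41) and POLR3E (-0.33) were among those lower in the combination than the sum. POLR3F (0.76) and POLR2C (0.39) were higher than the sum, both having fallen with each agent. For POLR3G and POLR3K the interaction was not called (0.33, adjusted p = 0.219, and -0.25, adjusted p = 0.176).

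Subunits that the table lists under older symbols were examined apart. CD3EAP (POLR1G), TWISTNB (POLR1F) and ZNRD1 (POLR1H) belong to polymerase I and CRCP to polymerase III. All 4 fell in the combination, by 2.05, 0.39, 0.85 and 0.41 on the log2 scale, and all 4 fell with tazemetostat. Of all tested genes, 35.2% fell in the combination, 31.5% with tazemetostat and 21.9% with ipatasertib. With ipatasertib TWISTNB and CRCP fell (-0.22 and -0.23), and CD3EAP (-0.22, adjusted p = 0.399) and ZNRD1 (-0.38, adjusted p = 0.0627) were not called.

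The factors that work with the polymerases had list medians from -0.74 to -0.35 in the combination, beside an all-gene median of 0.06 with 35.2% of all tested genes lower and 38.0% higher. Of 8 polymerase I factors 5 fell and none rose in the combination (median -0.35). RRN3, which recruits the enzyme to ribosomal DNA, changed by -0.43, TAF1A and TAF1D, of the promoter selectivity complex, by -1.29 and -0.81, and UBTF, the nucleolar activator, by 0.05 (not called). Of 30 tested general factors of polymerase II 23 fell and 3 rose (median -0.49), from GTF2H2 of TFIIH (-1.66) and TAF5 (-1.65) to TAF8 (0.31) and TAF1 (0.66), both of TFIID. Of 17 polymerase III factors 12 fell and 1 rose (median -0.39). GTF3A, which binds the gene of a small ribosomal RNA, fell by 2.39 ± 0.060 on the log2 scale, and SNAPC5 by 1.05.

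MAF1, the polymerase III repressor, was the riser of that list (0.45 in the combination, 0.36 with ipatasertib, -0.09 and not called with tazemetostat), and BRF1, a subunit of the polymerase III initiation factor, was not called in the combination (0.01). TBP, common to 3 of the lists, fell by 0.52. Of 12 genes in the list of assembly and import factors, which also holds POLR2M, 10 fell and 1 rose (median -0.74). The chaperone ATPases RUVBL1 and RUVBL2 fell by 1.95 and 1.53, and the GTPase GPN3, which acts in nuclear import of polymerase II, by 1.87. POLR2M, which is not a core subunit, was the only riser of the list (0.22).

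**Figure D5:**
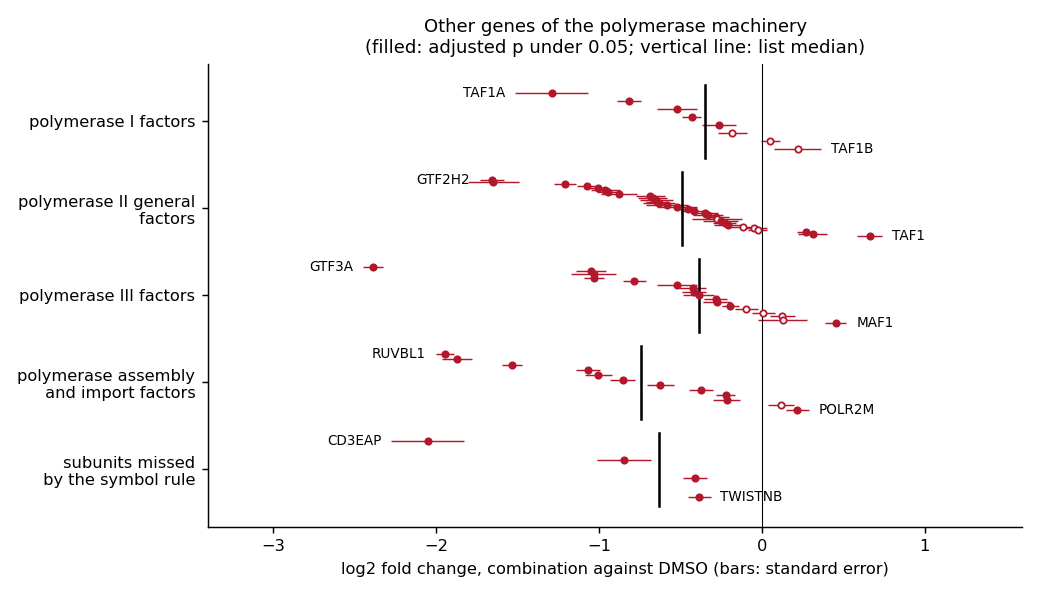
Log2 fold change in the combination against DMSO (x axis) with standard errors for the factors that work with the polymerases and for the 4 subunits under older symbols, filled where called at an adjusted p under 0.05, with a vertical line at each list's median. The assembly and import factors have a median of -0.74 and the polymerase I factors of -0.35, and GTF3A lies at -2.39.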

How the data were processed

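The authors deposited raw counts per gene, made per the labels with STAR and HTSeq on hg38; which annotation release, tool versions and strandedness they used is not given in the sources used here. A deposited normalized table equals these counts divided by 1 size factor per library and was not used. Counts were tested in R 4.3.3 with edgeR 4.0.16 after its filter on low counts (filterByExpr, 10 counts at least and 15 in total), with TMM scaling, 1 mean per group over all 12 libraries, quasi-likelihood tests and Benjamini-Hochberg adjustment over 16646 genes. The standard error was the log2 fold change divided by the square root of F. Fits were tested on simulated data. DESeq2 1.42.0, other scalings, filters, a replicate block, only the libraries compared and leaving out each library were the alternatives. The POLR3G to POLR3GL ratio used an exact permutation test (scipy 1.17.1). Same-group libraries differed by a chi-square per gene of 2.53 to 7.50, more than counting noise. All 30 members were found by identifier in GENCODE v44, which gave the exon overlaps.

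Named by rule were the catalytic subunits, paralogues and each class's lowest and highest change in the combination; from other lists, the 2 lowest and 2 highest called genes and UBTF, RRN3, TBP, BRF1 and MAF1. Members, lists and rules were chosen with earlier results of these data known. Counting error limits low genes: POLR2J2 had 3 to 25 counts per library. Sequences were read from RefSeq windows. The values of 1 member, which stays in all counts and class medians, and of some markers are not reported here.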

Additional observations from a re-analysis of the deposited data

Results flagged for a closer look

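The effect of each agent depended on the other, by the interaction test of edgeR over all 12 libraries, for 6 subunits, of which 5 are described here. Of the 30 members 4 were called lower and 2 higher, beside 17.5% and 10.7% of all tested genes. The members were thus not called more often than all genes. POLR2E (interaction -0.48 ± 0.088 log2, adjusted p = 5.85e-05), POLR2L (-0.41 ± 0.10, adjusted p = 0.00178) and POLR3E (-0.33 ± 0.10, adjusted p = 0.0166) were lower in the combination than the sum of the single-agent changes. POLR3F (0.76 ± 0.17, adjusted p = 0.000781) and POLR2C (0.39 ± 0.092, adjusted p = 0.00119) were higher than that sum. POLR2E and POLR3E were not called with ipatasertib alone (0.04 and -0.06) but fell when it was added to tazemetostat (-0.44 and -0.39). POLR3F and POLR2C did not pass the threshold when ipatasertib was added to tazemetostat (0.03 and -0.04). The call of POLR3E was lost without DMSO replicate B, ipatasertib replicate C or combination replicate A (adjusted p = 0.0632, 0.0936 and 0.0605).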

How the results depend on the processing

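Of 3944 recomputed log2 fold changes, 3817 kept their direction and side of the threshold, 89 lost the call, 38 gained it and none of the called ones reversed; the first number includes 70 sign changes of estimates called in neither fit. The counts of fallen members stayed within 1.5 times the reported count under every alternative run (22 to 23 in the combination against DMSO when libraries were left out). Counts of risen members moved. Against DMSO, ipatasertib gave 1 in place of 2 when every gene with at least 1 count was kept, and tazemetostat gave 5 in place of 3 without composition scaling and likewise 5 under upper-quartile scaling. The combination gave 3 in place of 5 against ipatasertib with DESeq2, and against tazemetostat 1 in place of 3 with DESeq2 and 1 when every gene with at least 1 count was kept. Tazemetostat against ipatasertib gave 2 in place of 1 without composition scaling, and the interaction gave 4 in place of 2 when at least 10 counts were required in every library. Leaving out 1 library gave 0 to 2 for ipatasertib against DMSO (0 without DMSO replicate B or ipatasertib replicate B, 1 without DMSO replicate C or ipatasertib replicate A or C), 1 to 3 for tazemetostat against DMSO (1 without DMSO replicate B), 2 to 5 and 1 to 3 for the combination against ipatasertib and tazemetostat, and 2 to 4 for the interaction (4 without DMSO replicate C or ipatasertib replicate B). Without that scaling the all-gene median of the combination contrast with DMSO moved from 0.06 to 0.26 (to 0.25 under upper-quartile scaling), and the genes called with tazemetostat split into 4193 lower and 6630 higher in place of 5249 and 5421; the cause was not tested. With a replicate block the combination against DMSO gave 23 lower and 5 higher as without it, and 1 call changed in all comparisons (POLR2J2, combination against ipatasertib). The replicate letters did not pair the samples: the 18 correlations between same-letter libraries ran from -0.058 to 0.069, and 4 of 12 libraries correlated best with their own letter. Depth limits POLR2J2, POLR2J3 and POLR3GL, the members with the fewest counts.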
